A study of Sus scrofa with 22 samples.

Results

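Stroma (S) was set against glandular epithelium (GE) within the same gilt, to see which genes mark the glands or the stroma and in which animals the cells cut out under those names carry different transcriptomes. The comparison used 12 of the 22 libraries of the data set, the S and the GE library of each of 6 gilts. Gilts 02, 04 and 13 were control animals and gilts 01, 05 and 14 were pregnant. Libraries of the luminal epithelium (LE) and the GE libraries of 2 gilts without S entered only where they are named. All animals were prepubertal crossbred gilts (German Landrace × Piétrain) whose ovulation was induced with PMSG and hCG and which were slaughtered on Day 12. The pregnant gilts had been inseminated with semen, and the control gilts with the fluid left after the sperm had been spun out. Cells were cut from frozen endometrium by laser capture microdissection (LCM), and cDNA libraries were made from picogram amounts of RNA. The label S names a tissue region, in which leukocytes and other cells were captured along with fibroblasts.

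Uterine glands secrete histotroph, the mixture of proteins, ions and nutrients on which the conceptus lives before it attaches. Gland cells are polarised epithelium, joined by tight junctions and desmosomes, and a share of them bears motile cilia. The stroma beneath them is built by fibroblasts that lay down collagen and small proteoglycans, and it holds vessels, smooth muscle cells and leukocytes. Stromal cells also make growth factors whose receptors lie on the epithelium, and Notch, WNT, hedgehog and steroid hormone signals pass between the compartments.

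Read counts were available for 11532 genes in the S table and 11676 genes in the GE table, with 11124 genes in both. Over these shared genes the 12 libraries held 1339772 to 3687085 counts, so that 3 counts correspond to 0.814 to 2.24 CPM (counts scaled to a common library total), and levels near that value are imprecise. Levels are given as CPM after scaling by TMM, and differences as log2 of S over GE. LE levels, list sums beside LE and levels of genes in 1 table alone were scaled by library total without TMM. The 6 values of a label are always listed in the order of the control gilts 02, 04 and 13 and then the pregnant gilts 01, 05 and 14. In these bulk libraries fewer cells of a type and less RNA per cell cannot be told apart.

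The cell types named by the labels were looked for first, with markers of epithelium and of fibroblasts. EPCAM, an adhesion protein of epithelial cells, had 103, 327, 396, 337, 595 and 497 CPM in GE and 377, 290.0, 358, 200.3, 683 and 440.0 CPM in S. For CDH1, the cadherin of epithelial adherens junctions, the levels were 233, 547, 588, 929.7, 1646 and 827 CPM in GE and 1191, 754, 1015, 408, 2161 and 831 CPM in S. Epithelial transcripts were therefore abundant in all 6 libraries labelled S, and S exceeded GE in gilt 02 and fell short of it in gilt 01. COL1A1, a chain of fibrillar collagen made by fibroblasts, had 13036, 4559, 772, 10616, 2770.0 and 3474 CPM in GE and 1180.1, 2049, 2120.3, 21608, 2007 and 3679 CPM in S. The library labelled GE of gilt 02 held more COL1A1 than 5 of the 6 libraries labelled S. ACTA2, the actin of smooth muscle, reached 3925 CPM in that library and 18.8 to 671 CPM in the S libraries. Its own partner, the library labelled S of gilt 02, had 20.8 CPM of ACTA2. The levels in gilt 02 thus run against both labels, and in gilts 04, 05, 13 and 14 EPCAM in S was near its level in GE. Counts, list medians and pair distances over all gilts are therefore also given without gilt 02.

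**Figure D1:**
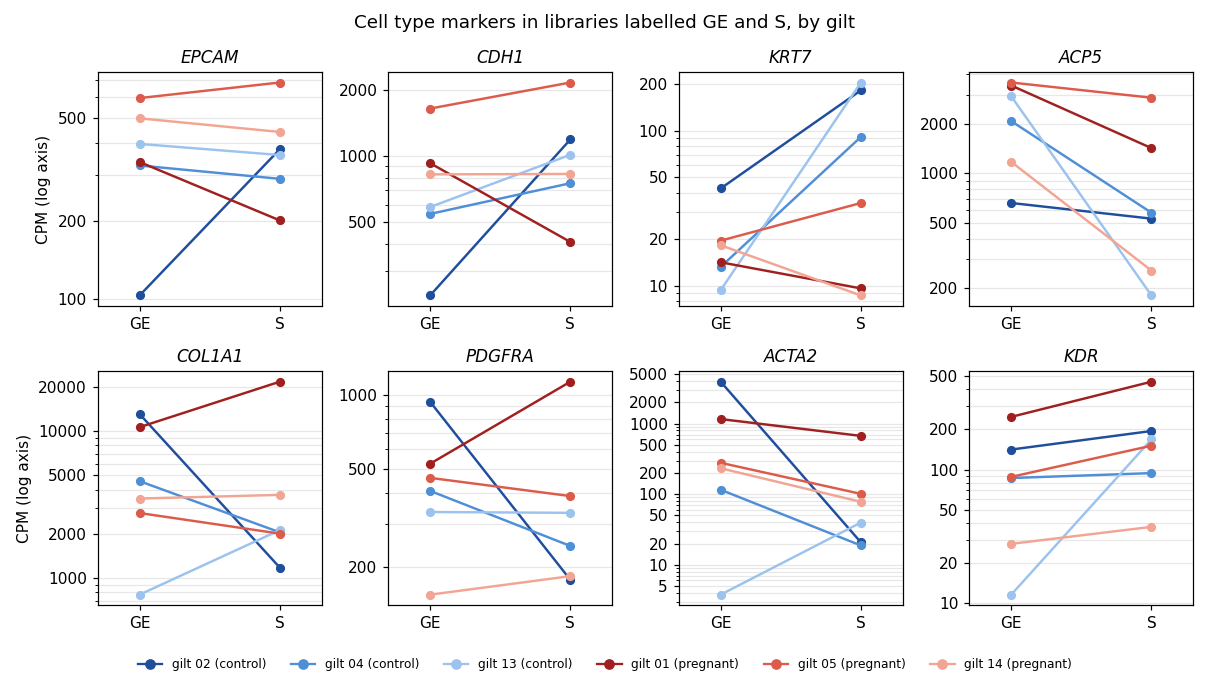
Levels (CPM, log axis) of 4 epithelial or gland genes and of a collagen, a fibroblast receptor, a smooth muscle and an endothelial gene in the libraries labelled GE and S, with 1 line per gilt. Gilt 02 has the lowest EPCAM and the highest ACTA2 of the 6 GE libraries, and the lines of one panel run in both directions for 6 of the 8 genes, the exceptions being ACP5 (lower in S in all pairs) and KDR (higher in S in all pairs).

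The sums over whole marker lists showed the same pattern beside the LE libraries of these gilts, over 10643 genes listed for all 3 labels. The 27 fibroblast genes summed to 59741, 21221 and 5825 CPM in GE of control gilts 02, 04 and 13, against 7273, 11406 and 12401 CPM in their S and 16703, 24095 and 21869 CPM in their LE. In the pregnant gilts 01, 05 and 14 the same sum was 40004, 14732 and 13339 CPM in GE, 76247, 10816 and 15856 CPM in S and 30154, 17443 and 16805 CPM in LE. Gilt 01 was therefore the one gilt in which S held the most fibroblast RNA of the 3 labels. The 9 smooth muscle and pericyte genes summed to 11322 CPM in GE of gilt 02, and the next highest of the other 11 S and GE libraries was 3094 CPM in GE of gilt 01. In GE of gilt 13 these 9 genes summed to 147 CPM. The 22 epithelial genes summed to 1444 CPM in GE of gilt 02, 2093 CPM in S of gilt 01 and 3861 to 6660 CPM in the other 10 libraries.

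**Figure D2:**
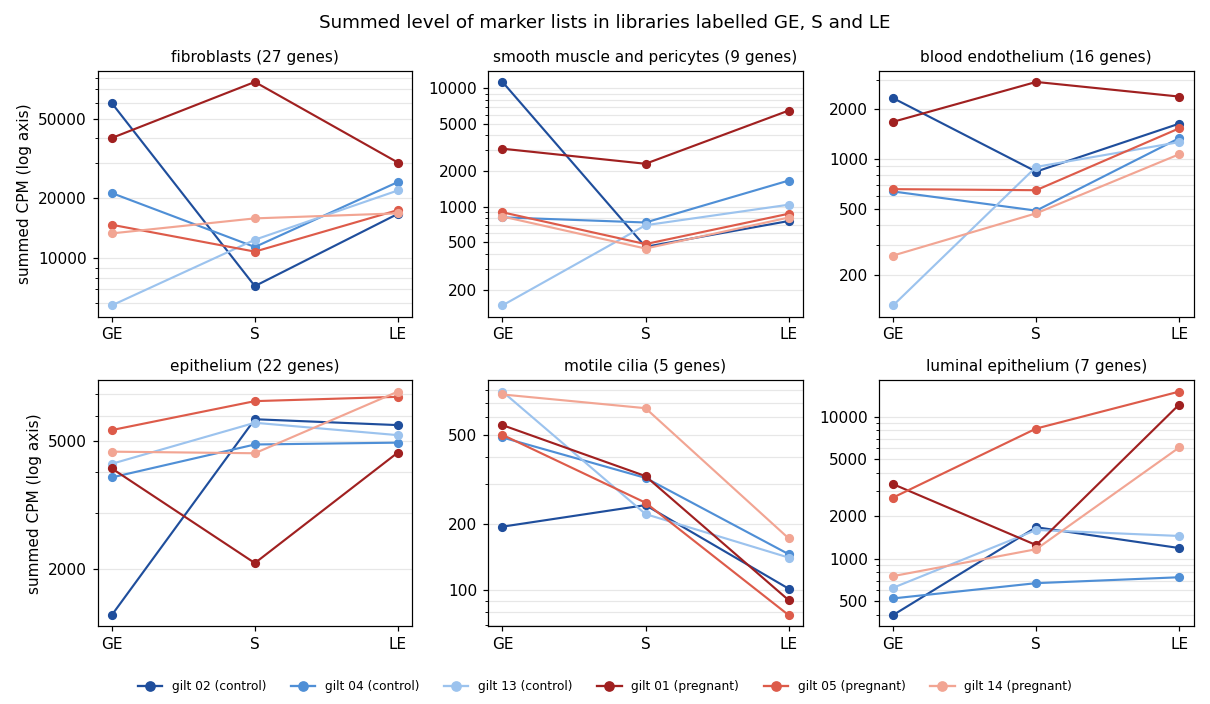
Summed CPM (log axis) of 6 marker lists in the libraries labelled GE, S and LE of the 6 gilts, with 1 line per gilt and the number of genes listed for all 3 labels in each panel title. GE of gilt 02 stands out by high fibroblast and smooth muscle sums and a low epithelial sum, and the 5 cilia genes sum to 194 to 785 CPM in GE, 221 to 661 CPM in S and 77.5 to 172 CPM in LE.

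Across all 6 pairs no gene separated S from GE at a false discovery rate (FDR) of 5%. The paired quasi-likelihood test of edgeR, with the gilt as a block, called 0 of 11124 genes (0.0%), while an unadjusted p value below 0.05 was reached by 1025 genes (9.21%), 548 higher in S (4.93%) and 477 lower (4.29%). The lowest adjusted p value was 0.356, for HEY1. Other tests on the same pairs called few genes, with 18 genes by the likelihood ratio test of edgeR, 27 genes by the Wald test of DESeq2 and 1 gene, HEY1, by limma voom with the gilt as a random block. All 18 genes of the likelihood ratio test were among the 27 of DESeq2. Without gilt 02, the quasi-likelihood test again called 0 genes (unadjusted p value below 0.05 for 1129), while DESeq2 called 84 and the likelihood ratio test 85. In this test no gene therefore marked glands or stroma in these pairs, and the genes below are described by their values and by the direction in each pair. S and GE differed in 1 direction in all 6 pairs for 605 genes (5.44%), 300 higher in S (2.7%) and 305 lower (2.74%). The 6 S libraries lay wholly above the 6 GE libraries for 6 genes (0.0539%), which were TMEM154, PAQR8, STIM2, NRDE2, PRDM4 and LARS2, and wholly below for 2 genes (0.018%), HEY1 and RBM18. In the 5 pairs without gilt 02, 550 genes were higher (4.94%) and 739 lower in S (6.64%) in every pair, and the labels did not overlap for 33 higher (0.297%) and 36 lower genes (0.324%). Leaving out any pair can only raise such counts or leave them as they are, and it always keeps the 8 genes above. These counts were not taken without another gilt, so the rise is not particular to gilt 02. Genes named from here on for this pattern or for the calls of other tests were chosen after their values were seen.

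Among genes lower in S, the clearest was HEY1 (chromosome 4, 56859640 to 56863807 in Sscrofa11.1), a transcriptional repressor induced by Notch signals. HEY1 had 33.4, 36.7, 42.1, 27.5, 19.6 and 18.3 CPM in GE and 14.5, 17.9, 16.9, 10.5, 8.40 and 7.53 CPM in S. The lowest GE library lay above the highest S library, although the libraries span both groups and gilt 02 is among them. Its log2 difference was −1.23 ± 0.15 (SE), with an adjusted p value of 0.356 in the quasi-likelihood test of edgeR, 1.81e-05 in the likelihood ratio test, 5.06e-05 in DESeq2 and 0.024 in limma voom. In the single pairs the log2 difference of HEY1 was −1.16, −1.0, −1.28, −1.33, −1.16 and −1.21. BHLHA15, a transcription factor of secretory cells, had 27.6, 40.9, 71.0, 41.3, 44.5 and 37.4 CPM in GE and 8.25, 11.8, 1.10, 14.5, 35.6 and 5.12 CPM in S. It was lower in S in all 6 pairs with a log2 difference of −2.10, and S of gilt 05 alone came close to GE. For both genes the adjusted p value of DESeq2 was below 0.05, and for BHLHA15 that of the likelihood ratio test was 0.0952.

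Products of gland cells followed the same direction in part. SLPI encodes a secreted inhibitor of leukocyte proteases, and its level was 47.0, 19, 117, 318, 275 and 225 CPM in GE and 14.9, 9.40, 8.82, 123, 224 and 27.7 CPM in S, a log2 difference of −1.81 ± 0.45 (SE; unadjusted p = 0.00366, adjusted p = 0.532 in edgeR). Every pair of SLPI went the same way, and the pregnant libraries lay above the control libraries of the same label. ACP5, the gene of uteroferrin, the iron-carrying phosphatase that pig glands secrete, had 658, 2069, 2928, 3406, 3552 and 1169 CPM in GE and 529, 574, 180.5, 1419, 2871 and 256 CPM in S. Its log2 difference was −1.61 ± 0.50 (SE), lower in S in 6 of 6 pairs, yet S of gilt 05 still held 2871 CPM. CD14, a receptor for bacterial lipopolysaccharide counted here with the leukocyte markers, had 7.01, 6.66, 16.7, 36.7, 30.6 and 10.2 CPM in GE and 0.786, 4.11, 0.368, 22.6, 24.9 and 3.92 CPM in S, and was lower in S in all 6 pairs (log2 difference −1.44 ± 0.54). Of the 11 gland markers in both tables, ACP5 and SLPI were lower and LIPG, a secreted lipase, was higher in S at an unadjusted p value below 0.05. Over all genes, 4.29% were lower and 4.93% higher at that level. The median log2 difference of the list was 0.08 (−0.24 without gilt 02) beside 0.00 for all genes tested, and it was −0.18 within the control and −0.35 within the pregnant gilts. FOXA2, the transcription factor on which gland formation depends, was at 16.9, 58.1, 78.0, 45.8, 56.9 and 108 CPM in GE and 11.4, 61.1, 12.1, 25.9, 48.1 and 131 CPM in S, higher in S in gilts 04 and 14.

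Genes of transport and of signalling were among the others lower in S in every pair. SLC30A2 (chromosome 6, 83478761 to 83484876), a zinc transporter, had 82.1, 279, 251, 72.8, 54.0 and 71.6 CPM in GE and 31.0, 164, 40.8, 37.2, 32.6 and 25.9 CPM in S, a log2 difference of −1.32 ± 0.26. For SLC4A4, a sodium bicarbonate cotransporter, GE held 30.9, 39.5, 30.5, 60.1, 71.6 and 45.5 CPM and S held 14.9, 10.9, 6.25, 21.8, 32.9 and 37.3 CPM, a log2 difference of −1.31 ± 0.26. MT1A, a metallothionein that binds zinc and copper, was lower in S in all pairs with a log2 difference of −0.81 ± 0.18. SESN3, a stress-induced sestrin that restrains mTORC1, had 444, 613, 374, 535, 558 and 306 CPM in GE and 196, 304, 167, 386, 353 and 238 CPM in S, and differed by −0.81 ± 0.16. PREX2, an exchange factor for the GTPase Rac, had 659, 842, 1141, 548, 726 and 398 CPM in GE and 117, 259, 47.8, 385, 500.5 and 130.1 CPM in S, with a log2 difference of −1.82. All 6 pairs of PREX2 were lower in S, least in gilts 01 and 05 and most in gilt 13. The uncharacterized gene LOC100626264 lay at 2084, 9130.3, 13601, 2325, 5394 and 5314 CPM in GE and 447, 4446, 1524, 1613, 5058 and 615 CPM in S, with a difference close to 0 in gilt 05. Differences of −1.03 ± 0.18 for SGTB, a co-chaperone, −0.92 ± 0.17 for FRMD4A, a scaffold of cell polarity, −1.0 ± 0.22 for DOCK5, another Rac exchange factor, and −0.71 ± 0.14 for RNF19B, a ubiquitin ligase, completed the named genes of this direction. MT1A and other metallothionein genes are near copies of each other, and the assignment of shared reads is not given in the sources used here.

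**Figure D3:**
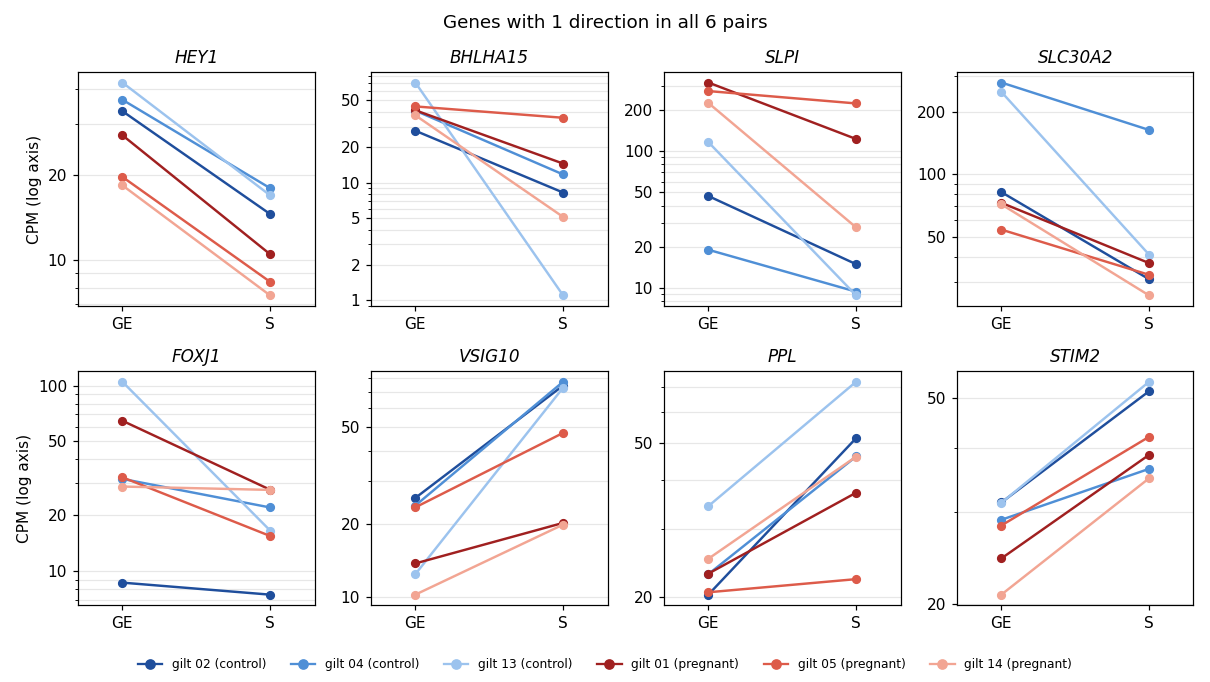
Levels (CPM, log axis) in libraries labelled GE and S of 8 genes with 1 direction in all 6 pairs, with 1 line per gilt. HEY1, BHLHA15, SLPI, SLC30A2 and FOXJ1 are lower in S in each pair and VSIG10, PPL and STIM2 higher, and the lines of HEY1 run nearly parallel whereas those of BHLHA15 and SLPI differ in slope.

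Of the 16 gene lists, that of motile cilia had the most members lower in S at an unadjusted p value below 0.05. FOXJ1, the transcription factor that switches on the programme of motile cilia, had 8.67, 31.4, 105, 64.7, 32.1 and 28.6 CPM in GE and 7.46, 22.0, 16.5, 27.5, 15.5 and 27.4 CPM in S, lower in 6 of 6 pairs with a log2 difference of −0.96 ± 0.34 (unadjusted p = 0.0228, adjusted p = 0.532 in edgeR). The difference was small in gilts 02 and 14. RFX2, a partner factor of ciliary genes, had 11, 9.52, 24.6, 30.1, 13.3 and 15.9 CPM in GE and 7.46, 7.93, 5.88, 5.66, 6.39 and 10.8 CPM in S, a log2 difference of −1.11 ± 0.33. RSPH4A, a protein of the radial spoke heads, had 8.67, 46.7, 99.9, 47.4, 37.8 and 54.3 CPM in GE and 7.86, 33.5, 17.6, 15.3, 15.5 and 42.8 CPM in S, with −1.07 ± 0.33. DNAH5, a heavy chain of outer arm dynein, stood at 28.5, 113, 179, 203, 168 and 229 CPM in GE and 29.5, 71.7, 25.4, 98.6, 77.3 and 189 CPM in S and was slightly higher in S in gilt 02. TPPP3, a tubulin-binding protein of ciliated cells, was lower in S in all pairs with a log2 difference of −0.80 ± 0.25. These 5 of the 10 cilia genes in both tables had an unadjusted p value below 0.05 and 4 were lower in all 6 pairs. Over all genes, 4.29% were lower in S at that p value and 2.74% were lower in all 6 pairs. The median log2 difference of the 10 genes was −0.79 (−1.05 without gilt 02), beside 0.00 over all genes. All 10 were lower in S in gilts 01, 04, 05 and 13, 8 of 10 in gilt 14 and 4 of 10 in gilt 02. A further 7 cilia genes (DNAI1, DNAI2, RSPH1, CAPS, CFAP52, TEKT1 and CCDC78) were listed for GE and not for S, and among their GE libraries DNAI1 was highest in gilt 13 (20.8 CPM) and lowest in gilt 02 (2.78 CPM).

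The sequences before these genes are shown because RFX factors, RFX2 among them, are known to bind a motif made of inverted copies of GTTGCC. The copy GTTGCC was searched on both strands from 250 bases before to 30 bases after the start of each gene in RefSeq (Sscrofa11.1). It occurred in 4 of the 10 cilia genes in both tables, in 2 of the 7 listed for GE and not for S (28.6%) and in 1516 of 12397 genes listed in at least 1 table (12.2%). A match is a description of these letters and not of a bound site. The 3 genes in both tables with a match within 50 bases of the start follow, written along the gene from 5′ to 3′ with the match in capitals (in CFAP43 it lies on the other strand and reads GGCAAC).
RFX2 (chr2:72949609-72949888, plus strand): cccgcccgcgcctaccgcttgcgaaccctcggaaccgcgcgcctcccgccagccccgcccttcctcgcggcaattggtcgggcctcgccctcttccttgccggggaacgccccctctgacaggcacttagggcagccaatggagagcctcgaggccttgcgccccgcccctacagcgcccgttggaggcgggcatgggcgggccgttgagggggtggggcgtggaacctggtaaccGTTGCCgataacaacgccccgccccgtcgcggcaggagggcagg
CFAP43 (chr14:115201936-115202215, minus strand): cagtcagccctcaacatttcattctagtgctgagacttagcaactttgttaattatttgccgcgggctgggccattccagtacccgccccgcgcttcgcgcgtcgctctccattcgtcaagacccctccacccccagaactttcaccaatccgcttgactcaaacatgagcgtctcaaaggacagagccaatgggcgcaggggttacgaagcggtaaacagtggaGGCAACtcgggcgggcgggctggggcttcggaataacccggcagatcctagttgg
SPAG6 (chr10:52571948-52572227, minus strand): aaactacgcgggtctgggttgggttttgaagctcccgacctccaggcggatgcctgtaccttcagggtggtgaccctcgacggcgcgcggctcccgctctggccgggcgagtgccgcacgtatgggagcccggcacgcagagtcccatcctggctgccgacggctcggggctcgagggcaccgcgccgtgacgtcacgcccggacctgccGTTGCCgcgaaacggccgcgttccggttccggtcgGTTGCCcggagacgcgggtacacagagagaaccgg
RFX2 carried its match 14 bases before the gene start and CFAP43 25 bases before it. SPAG6, a protein of the ciliary central pair, carried 2 matches. CFAP43 itself had 6.6, 39.0, 80.5, 22.9, 25.1 and 27.9 CPM in GE and 12.6, 16.2, 17.6, 12.1, 15.5 and 23.2 CPM in S, lower in 5 of 6 pairs. SPAG6 had 0.413, 16.2, 36.4, 16.3, 17.6 and 13.4 CPM in GE and 4.32, 12.0, 8.46, 4.85, 9.07 and 17.8 CPM in S. Its value in GE of gilt 02 lay under the level of 3 counts.

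In the other direction, higher in S, the lowest unadjusted p value belonged to ALDH1A3 (chromosome 1, 139451080 to 139491514), an enzyme that makes retinoic acid. ALDH1A3 had 32.6, 40.5, 38.3, 19.4, 49.4 and 183 CPM in GE and 44.4, 68.2, 80.9, 37.2, 75.3 and 509.6 CPM in S, a log2 difference of 0.89 ± 0.16 (SE; unadjusted p = 0.000514, adjusted p = 0.532 in edgeR, 0.0160 in DESeq2). Both libraries of gilt 14 stood far above those of the other gilts, and S was still the higher one within the pair. RARG, a receptor for retinoic acid, was also higher in S in 6 of 6 pairs, with 28.5, 5.24, 1.89, 23.9, 7.51 and 6.0 CPM in GE and 38.5, 13.2, 28.7, 34.7, 15.1 and 12.6 CPM in S. VSIG10, an immunoglobulin domain protein, had 25.6, 23.8, 12.4, 13.8, 23.4 and 10.2 CPM in GE and 74.2, 77.0, 72.8, 20.2, 47.4 and 19.9 CPM in S, a log2 difference of 1.41 ± 0.26, and the control S libraries were the highest. PPL, the desmosomal linker periplakin, had 20.2, 22.9, 34.3, 22.9, 20.5 and 25.0 CPM in GE and 51.5, 46.1, 72.0, 37.2, 22.2 and 46.1 CPM in S, higher in S in each pair although desmosomes belong to epithelium. STIM2, a calcium sensor of the endoplasmic reticulum, had 31.4, 29.0, 31.3, 24.5, 28.3 and 20.8 CPM in GE and 51.5, 36.4, 53.7, 38.8, 42.0 and 34.9 CPM in S. PAQR8, a membrane progestin receptor, had 5.37, 7.62, 8.10, 8.15, 5.20 and 4.59 CPM in GE and 18.5, 14.1, 21.0, 12.1, 11 and 10.2 CPM in S. For STIM2 and PAQR8 every S library exceeded every GE library, with log2 differences of 0.63 ± 0.13 and 1.15 ± 0.22. In the control LE libraries the median was 77.5 CPM for VSIG10, 46.1 CPM for STIM2 and 19.2 CPM for PAQR8. The control S means were 74.7, 47.2 and 17.8 CPM and the control GE means 20.6, 30.6 and 7.03 CPM. In the pregnant LE libraries the medians were 61.4, 40.1 and 7.94 CPM, beside S means of 29.2, 38.6 and 11.15 CPM. The direction is that of S over GE, and S was not shown to differ from LE.

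Several other genes were higher in S in all pairs. CELSR2, a cadherin of planar cell polarity, had 9.49, 12.4, 9.18, 7.64, 3.18 and 13.4 CPM in GE and 41.2, 19.1, 19.9, 17.0, 7.73 and 23.2 CPM in S. GPRC5A, an orphan receptor induced by retinoic acid, had 20.2, 5.24, 4.32, 13.2, 9.53 and 12.7 CPM in GE and 42.0, 19.1, 44.5, 16.2, 37.0 and 27.1 CPM in S, and its GE and S ranges overlapped because GE of gilt 02 lay above S of gilts 04 and 01. MRPS26, a protein of the mitochondrial ribosome, differed by 1.29 ± 0.25, APOBEC3B, a cytidine deaminase, by 1.15 ± 0.23, LRRC8D, a subunit of volume-regulated anion channels, by 0.72 ± 0.15 and UTP20, a factor of ribosome assembly, by 0.50 ± 0.11. KDR, the main receptor for VEGF on blood vessels, had 142, 86.6, 11.6, 249, 88.4 and 27.9 CPM in GE and 195, 94.3, 168, 456, 151 and 37.3 CPM in S, higher in S in all 6 pairs with an unadjusted p value of 0.0619. BMPR1A, a receptor for bone morphogenetic proteins, was higher in S in each pair by 0.51 ± 0.18 (unadjusted p = 0.0222). TMEM154, a transmembrane protein, had 7.01, 1.90, 2.43, 7.13, 5.78 and 6.70 CPM in GE and 50.7, 21.4, 33.5, 9.69, 19.5 and 7.23 CPM in S, and the lowest S library exceeded the highest GE library. Its log2 difference was 0.41 in gilt 01 and 0.10 in gilt 14, and 2.73, 3.07 and 3.43 in control gilts 02, 04 and 13.

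The 16 gene lists held 337 genes, of which 240 were in both tables, 12 in the S table alone, 23 in the GE table alone and 57 in neither, with 332 symbols matched to the annotation. No list had a member called in the paired quasi-likelihood test. Over all genes, 4.93% were higher and 4.29% lower in S at an unadjusted p value below 0.05, the share for the counts below. None of the 22 epithelial genes and none of the 16 endothelial genes had an unadjusted p value below 0.05 in either direction, and their median log2 differences were 0.33 and 0.41 (0.07 and 0.82 without gilt 02). Of the 27 fibroblast genes none was higher in S at that level and 1, VCAN (versican, a proteoglycan of loose matrix), was lower in S with a log2 difference of −0.89 ± 0.35. The fibroblast median was −0.32 over 6 pairs and 0.13 without gilt 02, so that its sign rests on that gilt. Genes of epithelial junctions gave 2 of 22 higher in S, PPL and EVPL (envoplakin, the partner of periplakin), and a median of 0.23 (−0.01 without gilt 02). Genes with products known from the luminal epithelium gave 3 of 7 higher in S, with a median of 1.01 (0.69 without gilt 02). FGF7, a growth factor that pig luminal epithelium makes, had 179, 124, 74.2, 635, 752 and 291 CPM in GE and 1181, 290.3, 1119.7, 365, 2288 and 495 CPM in S. LPAR3, a receptor for lysophosphatidic acid, had 14.9, 21.9, 19.4, 126, 139 and 63.5 CPM in GE and 100.2, 37.3, 46.3, 67.9, 456 and 88.8 CPM in S. STC1, the hormone stanniocalcin, reached 64.0 CPM in S of gilt 02, and its level in 2 of the GE libraries was 0 counts. For FGF7 and LPAR3, S was higher than GE in each gilt but gilt 01.

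Signals between the compartments were described by ligands and receptors, beside 4.93% of all genes higher and 4.29% lower in S at an unadjusted p value below 0.05. Among 17 growth factor genes in both tables, WNT5A, VEGFA and FGF7 were higher in S at an unadjusted p value below 0.05 and none was lower, with a list median of −0.12 (0.29 without gilt 02). FGF7 is also counted among the luminal genes above. WNT5A, a WNT ligand that shapes gland formation, had 118, 53.8, 22.4, 44.8, 35.8 and 19.8 CPM in GE and 139, 131, 192, 136, 32.9 and 41.0 CPM in S, and gilt 05 was the exception in direction. VEGFA, the main growth factor of blood vessels, had 46.2, 15.7, 9.99, 58.1, 43.3 and 20.5 CPM in GE and 133, 64.6, 135, 44.4, 92.1 and 22.0 CPM in S, lower in S in gilt 01 alone. Of 26 growth factor receptor genes 4 were higher in S and none lower, with a median of −0.01 (0.05 without gilt 02). They were PTCH1, the hedgehog receptor (0.65 ± 0.21), ERBB2, a receptor kinase of the EGF family (0.67 ± 0.24), BMPR1A and IGF1R, the receptor of IGF1 (0.39 ± 0.15). Among 15 hormone receptor genes, RARG and OXTR were higher in S and PRLR, the prolactin receptor, was lower in all 6 pairs with a log2 difference of −0.81 ± 0.35. The median of these 15 genes was −0.02, and 0.18 without gilt 02. OXTR, the oxytocin receptor, had 21.5, 10.0, 9.18, 7.13, 5.78 and 3.88 CPM in GE and 105, 13.5, 90.4, 10.5, 4.71 and 6.63 CPM in S, so that S of control gilts 02 and 13 stood apart from the rest. For ESR1, the estrogen receptor, the labels overlapped, with 317, 619, 384, 247, 253 and 525 CPM in GE and 416, 656, 513, 275, 217 and 878 CPM in S.

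The remaining lists are set beside the 9.21% of all genes that passed an unadjusted p value of 0.05. Of 23 basement membrane genes, LAMA3, a chain of epithelial laminin, and DAG1, the matrix receptor dystroglycan, were lower in S and COL17A1, a collagen of hemidesmosomes, was higher. Their log2 differences were −0.88 ± 0.33, −0.50 ± 0.20 and 1.24 ± 0.52, and the median of the list was −0.05 (0.30 without gilt 02). Of 14 transcription factor genes that set epithelial or mesenchymal identity and of 20 that pattern the uterus, none passed an unadjusted p value of 0.05, and the medians were 0.31 and 0.00 (0.31 and 0.20 without gilt 02). For 10 leukocyte genes CD14 was the one gene at that level, and the median was 0.05 (0.17 without gilt 02). PTPRC, the pan-leukocyte antigen CD45, had 30.1, 24.8, 37.8, 9.68, 23.1 and 18.3 CPM in GE and 33.8, 21.4, 32.7, 16.2, 18.8 and 34.6 CPM in S, with overlapping ranges. The summed leukocyte list ran from 147 to 335 CPM in GE and from 152 to 526 CPM in S.

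The pairs were then taken one by one, since a list can cancel across animals. A pair was counted as separating on a list when its median S minus GE difference was at least 0.5 on the log2 scale in the direction of the label. Gilt 01 separated on 4 of 4 lists, with medians of −0.79 for epithelium, −0.76 for glands, −0.67 for junctions and 1.03 for fibroblasts, and all 22 epithelial genes were lower and all 27 fibroblast genes higher in its S library. Gilt 13 separated on 2 of 4 lists, glands with −0.84 and fibroblasts with 0.97 (24 of 27 genes higher in S), but epithelium was at 0.30. Gilts 02, 04, 05 and 14 separated on 0 of 4 lists. In gilt 02 the signs were opposite to the labels, with epithelium at 1.92 (22 of 22 genes higher in S), junctions at 1.5, glands at 1.0 and fibroblasts at −2.89 (1 of 27 genes higher in S). Gilt 04 ran the same way to a smaller extent, with fibroblasts at −0.92 (1 of 27 genes higher in S) and epithelium at 0.26. In gilts 05 and 14 the fibroblast medians were −0.33 and 0.08, and the epithelial medians were 0.26 and −0.13.

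Vessels and muscle set gilts 02 and 13 at opposite ends. The 16 endothelial genes had a median of 2.78 in gilt 13, where all 16 were higher in S, and −1.35 in gilt 02, where 2 of 16 were. In gilt 01 all 16 and in gilt 14 also 16 of 16 were higher in S, with medians of 0.81 and 0.65. PECAM1, an adhesion protein of endothelium, had 369, 44.3, 6.75, 152, 72.2 and 27.2 CPM in GE and 26.7, 31.1, 33.1, 265, 62.5 and 53.6 CPM in S. The 9 smooth muscle and pericyte genes had a median of −4.36 in gilt 02, with 0 of 9 higher in S, and 2.39 in gilt 13, with 9 of 9. Over all pairs their median was −0.71 (−0.30 without gilt 02). MYH11, the myosin of smooth muscle, had 2821, 165, 8.37, 529.8, 140.4 and 148 CPM in GE and 36.5, 336, 173, 266, 68.9 and 47.3 CPM in S. TAGLN, an actin-binding protein of the same cells, reached 1029.6 CPM in GE of gilt 02 and 8.25 to 157 CPM in S.

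**Figure D4:**
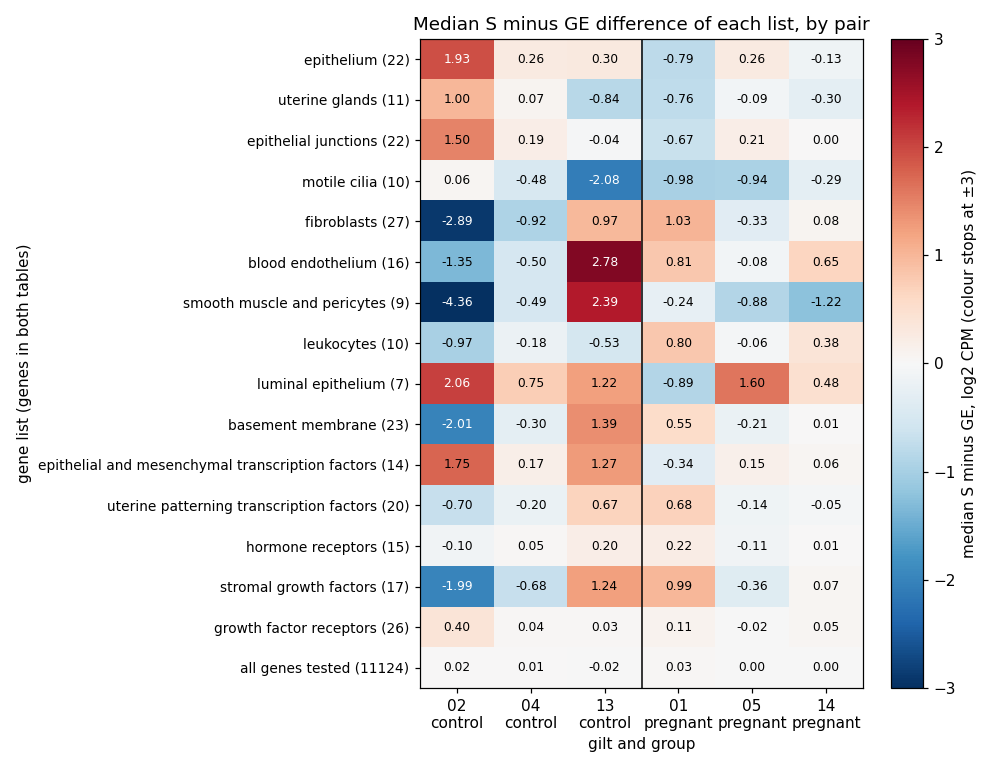
Median S minus GE difference (log2 CPM, colour and number) of 15 gene lists in each of the 6 pairs, with the number of genes in both tables in brackets. Gilts 02 and 13 carry the deepest colours and differ in sign for fibroblasts, vessels and smooth muscle, whereas motile cilia are negative in every pair except gilt 02 (0.06).

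The distance between the libraries of a pair, as the root mean square log2 difference over the 500 genes that differ most, was 3.49, 1.95 and 4.07 in control gilts 02, 04 and 13 and 1.89, 1.59 and 1.65 in pregnant gilts 01, 05 and 14. Each control pair lay farther apart than each pregnant pair (3.17 ± 1.09 against 1.71 ± 0.16, mean ± SD, n = 3 each), with a p value of 0.1 in a two-sided exact permutation test, the smallest that 3 against 3 gilts allow. Over all genes control gilt 04 (0.644) lay closer than pregnant gilt 01 (0.667), and the p value of the same exact test was 0.2. Without gilt 02 the control mean was 3.01 ± 1.5 (SD, n = 2), with an exact permutation p value of 0.2, the smallest that 2 against 3 gilts allow, and of 0.4 over all genes. Genes that differed by at least 2-fold made up 26.5% of all genes in gilt 02, 24.2% in gilt 13, 12.1% in gilt 01, 10.4% in gilt 04, 7.22% in gilt 05 and 6.72% in gilt 14. The log2 levels of S and GE of one gilt were correlated across genes with r between 0.782 and 0.956 (median 0.923), beside 0.700 to 0.929 (median 0.846) for the same label in different gilts. The different gilts include control gilts set against pregnant ones, so that these lower values mix group and animal. These are descriptions across genes, which are not independent replicates. In gilts 01, 04, 05 and 14 the library most like S was GE of the same gilt and the reverse, so that the nearest library shared the animal and not the label. S of gilts 02 and 13 were nearest to each other (r = 0.929), GE of gilt 02 was nearest to S of gilt 01 (r = 0.898) and GE of gilt 13 to GE of gilt 14 (r = 0.898). Each pair of libraries differed beyond counting error (chi-square per gene 12.8 to 73.3).

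In control gilts 02 and 13, but not 04, S was more like LE than like GE. Across the 10643 genes listed for all 3 labels, S of control gilts 02, 04 and 13 correlated with LE of the same gilt with r = 0.933, 0.917 and 0.961, against r = 0.779, 0.935 and 0.814 between S and GE. GE of these gilts correlated with LE with r = 0.822, 0.852 and 0.754. In the pregnant gilts 01, 05 and 14, S correlated with LE with r = 0.795, 0.90 and 0.826, with GE with r = 0.925, 0.960 and 0.956, and GE with LE with r = 0.836, 0.830 and 0.822, so that each pregnant S library was more like GE. Averaged over the 3 control gilts, the log2 level of S lay nearer to LE than to GE for 6292 of the 10643 genes (59.1%), and in the pregnant group for 2926 genes (27.5%). Of 299 such genes that were higher in S in all 6 pairs, the control S mean lay nearer to LE for 281 (94.0%). In the pregnant group this held for 136 of them (45.5%). For 256 genes lower in S in all pairs the numbers were 200 (78.1%) and 106 (41.4%). Both sets were chosen by their difference between S and GE, which favours this result beforehand. Whether LE cells were part of the areas labelled S was not tested.

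Taken alone, the 3 control pairs gave 19 called genes (0.171%), 15 higher in S (0.135%) and 4 lower (0.036%), all at an adjusted p value of 0.0466 in edgeR, and 1872 genes (16.8%), of which 1062 were higher (9.55%) and 810 lower in S (7.28%), reached p below 0.05 before adjustment. The largest increases were in MYO3A, an unconventional myosin of actin protrusions (3.86 ± 0.39), TMEM154 (3.32 ± 0.42) and CYP24A1, which breaks down active vitamin D (3.28 ± 0.29). PSAT1, an enzyme of serine synthesis, had 97.8, 196 and 112 CPM in control GE and 427, 637 and 778 CPM in control S, against 38.7, 53.7 and 55.7 CPM in pregnant GE and 37.2, 70.9 and 62.0 CPM in pregnant S. HDC, which makes histamine, had 10.3, 25.2 and 16.5 CPM in control GE and 67.2, 102 and 68.4 CPM in control S. PIGR, which carries IgA across epithelium and was among the gland markers, had 13.6, 19.5 and 10.8 CPM in control GE and 87.2, 64.6 and 88.2 CPM in control S. PLA2G4A, the phospholipase that frees arachidonic acid for prostaglandins, rose by 2.22 ± 0.27. The 4 control LE libraries, which include a gilt without S and were scaled without TMM, were near the S level for these genes. Their median was 934 CPM for PSAT1 (S mean 614, GE mean 135). It was 94.2 CPM for PIGR (S mean 80.0, GE mean 14.6) and 38.6 CPM for CYP24A1 (S mean 37.3, GE mean 3.78). For all 19 called genes the control S mean lay nearer to LE than to GE, beside 59.1% of all genes. The 19 genes were called for their distance between S and GE in these gilts, which favours this result beforehand.

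The 4 genes lower in control S were APOD, a lipid carrier, ADAMTS5, a protease that cleaves proteoglycans, the G protein-coupled receptor kinase GRK3 and the transcription factor KLF15. APOD (chromosome 13, 132514546 to 132562594) had 752, 312 and 187 CPM in control GE and 33.8, 48.2 and 12.5 CPM in control S, a log2 change of −3.68 ± 0.39. ADAMTS5 had 179.9, 132 and 109.6 CPM in control GE and 19.2, 30.6 and 15.1 CPM in control S, a change of −2.72 ± 0.27. For both genes the control GE and S libraries did not overlap, and the pregnant pairs differed in either direction. GRK3 fell by 1.87 and KLF15 by 1.91 on the log2 scale. Leaving out any one of gilts 01, 02, 05, 13 and 14 left 0 called genes in the quasi-likelihood test, where 1800 genes reached p below 0.05 before adjustment without gilt 02, and leaving out gilt 04 left 11. DESeq2 called 735 genes in these pairs and the likelihood ratio test 800, and both lists held all 19.

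The 3 pregnant pairs gave 0 called genes (0.0%) in edgeR and 0 in DESeq2, the likelihood ratio test and limma voom, while 223 genes (2.0%), 99 of them higher (0.89%) and 124 lower in S (1.11%), reached p below 0.05 before adjustment. The test of the difference between the groups, pregnant minus control, also called 0 genes (0.0%), its lowest adjusted p value being 0.203. Before adjustment 1030 genes (9.26%) reached p below 0.05, 418 with a higher (3.76%) and 612 with a lower S over GE difference in pregnant gilts (5.5%). In this test DESeq2 called 138 genes, the likelihood ratio test 161 and limma voom 0. The smallest p value belonged to CYP24A1, whose S over GE difference was 3.28 ± 0.29 in control and −0.36 ± 0.26 in pregnant gilts. ADAMTS5 differed by −2.72 ± 0.27 in control and 0.26 ± 0.25 in pregnant gilts, and APOD by −3.68 ± 0.39 and 0.10 ± 0.35. MFSD4A, a sugar transporter of the major facilitator family, gave 1.87 ± 0.21 and −0.50 ± 0.21. For the developmental transcription factors PAX2 and SOX13 the control differences were 2.06 ± 0.27 and 1.23 ± 0.18 and the pregnant ones −0.67 ± 0.26 and −0.59 ± 0.18. KCND3, a potassium channel, KYNU, an enzyme of tryptophan breakdown, and METTL24 completed the genes with the smallest p values in the opposite direction, with group differences of 3.41 ± 0.62, 2.40 ± 0.43 and 2.57 ± 0.42. None of these genes passed the FDR in this test, so that the calls in control pairs are not shown by it to differ between the groups.

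**Figure D5:**
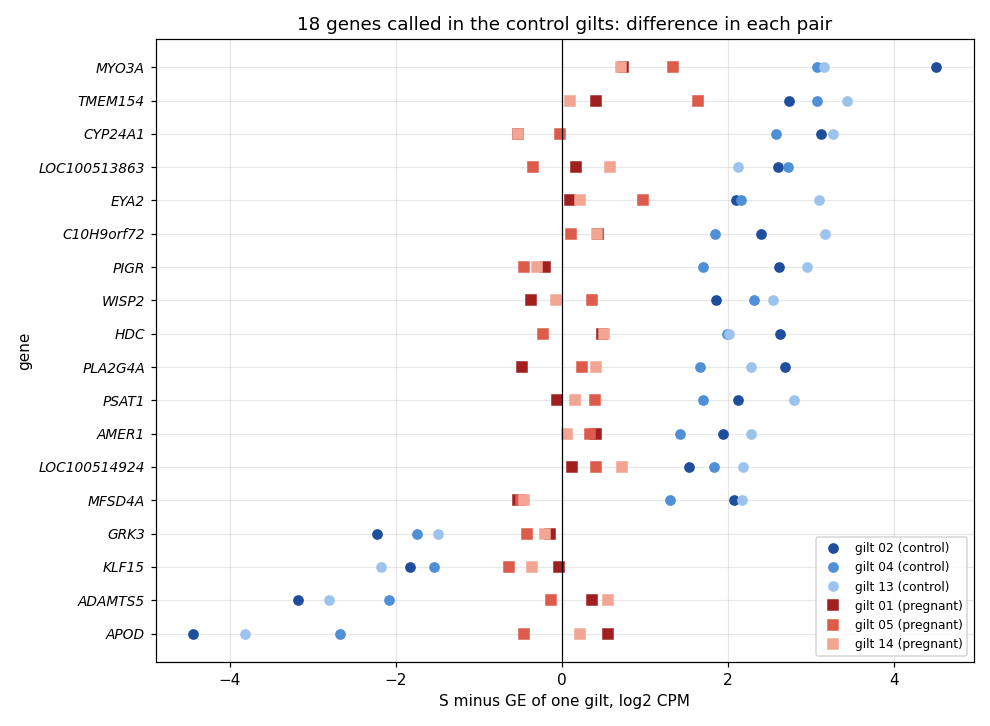
S minus GE difference (log2 CPM, horizontal axis) in each of the 6 pairs for 18 of the 19 genes called in the control gilts, those with a log2 difference of at least 1.5 in either direction, with circles for control and squares for pregnant gilts. In each row the 3 control pairs lie farther from 0 than the 3 pregnant pairs and do not overlap them, and the genes were selected on the control pairs.

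Genes listed for S or for GE and not for the other were mostly low. The S table held 408 genes that the GE table lacked, with a median of 7.06 for the mean CPM of a gene, and 552 genes of the GE table were lacking in S, with a median of 7.41. The paper names a CPM cutoff but not how it was applied to each cell type. A gene missing from a table is therefore not known to be 0 there. The 5 highest of the GE table were ELN (elastin, the stretchable fibre of vessel walls), ACTG2 and CNN1 (actin and calponin of smooth muscle), CTNNA3 (a catenin) and GJA5 (a connexin of arterial endothelium). ELN had 778, 41.3 and 2.97 CPM in GE of control gilts 02, 04 and 13 and 271, 7.64 and 41.1 CPM in pregnant gilts 01, 05 and 14. All 5 were highest in GE of gilt 02, with 374 CPM of ACTG2, 356 CPM of CTNNA3, 276 CPM of GJA5 and 291 CPM of CNN1. Of the 5 highest in the S table, the uncharacterized LOC110260014, LOC102167127 and LOC110255466 peaked in S of gilt 14 at 551, 304 and 203 CPM. COCH, the matrix protein cochlin, had 151, 25.9 and 120 CPM in S of control gilts 02, 04 and 13 and at most 4.77 CPM in the pregnant gilts, and SGPP2, a sphingosine phosphatase, peaked at 98.7 CPM in gilt 13. Both are also listed for LE. Some lymphatic endothelial markers were listed for S and not for GE, with LYVE1 (a hyaluronan receptor of lymphatic vessels) at 44.6 CPM, PROX1 (their master transcription factor) at 46.1 CPM and MMRN1 (a matrix protein of endothelium) at 112 CPM in S of gilt 01, which had the highest value of each. FLT4 of the same list was at 29.0 CPM there and is also listed for LE. In S of control gilts 02, 04 and 13 PROX1 was at 0, 0.305 and 0 CPM, LYVE1 at 0.402, 0.915 and 1.91 CPM and MMRN1 at 0 CPM in each. FLT4 had 7.65, 3.97 and 6.12 CPM in these libraries.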

How the data were processed

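RNA-seq read counts of LCM samples were analysed for the S and GE libraries of 6 gilts. As described in the paper, the authors mapped reads with Hisat2 to Sscrofa11.1, removed PCR duplicates, counted the reads of every NCBI gene and dropped those of low CPM. The deposited counts are whole numbers without normalization, 1 table per cell type. The counting tool and its use of strand are not given in the sources used here, and antisense or overlapping genes cannot be separated. Samples were grouped by the labels. The S and GE tables were joined by gene ID (11124 genes, all matched in RefSeq), and these held 99.0 to 99.8% of the counts of each library. Each gene of the S table reached 7.93 CPM in 2 libraries, and each in GE reached 6.91 CPM in 3 libraries. Values near 3 counts are imprecise, and this level covers counting error only.

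S was tested against GE in edgeR 4.0.16 (R 4.3.3) with TMM, the quasi-likelihood F test and the gilt as a fixed block, over all genes, with a Benjamini-Hochberg FDR below 0.05. A further fit had 1 S over GE coefficient per group. Pairs come from the labels, which give the gilt. Deviations from the group means correlated above 0.1 between S and GE of the same gilt in 5 of 6 gilts (0.643 in gilt 01, 0.222 in 02, 0.283 in 04, 0.570 in 05 and 0.739 in 14) and were at −0.154 in gilt 13. Libraries of different gilts reached 0.567 (S of 01 with GE of 02), 0.351 (S of 04 with GE of 14) and 0.222 (S of 13 with GE of 02). The values of gilts 02 and 04 were therefore not particular to the shared gilt. Alternatives were DESeq2 1.42.0, limma 3.58.1 (voom), the likelihood ratio test, other scalings, filters, thresholds, thinned counts, no block and leaving out each gilt. The fits were also run on simulated data with 200 changed genes, whose simulated difference was the same in every pair. Most genes in these data changed direction between pairs, so the simulation does not bear on the number of genes called here. Log2 CPM used a prior count of 2, and comparisons with LE used log2(CPM + 2) over the genes of all 3 tables.

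The members, gene lists and tests were chosen with earlier results of these data known. Named genes were to be the 12 genes called in each direction with 1 sign in 6 pairs, which gave none, the 5 smallest p values of the group difference in each direction, the 5 highest genes of 1 table alone and members of the lists. Other named genes are those with 1 direction in all pairs and small p values, those called by other tests and those called in control gilts. The same direction in a planned left-out gilt could not be examined, because no fit without a gilt called a gene across the pairs. For 1 gene that these rules select, values are not reported here.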

Additional observations from a re-analysis of the deposited data

Results flagged for a closer look

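Gilt 02 stood apart from the other 5 gilts in 2 of 66 sets of 6 pair values examined, where the gap to the nearest gilt exceeded 0.625 of the whole range (Dixon's 95% critical value for 6 values). Chance alone gives such a gap in about 1 of 20 sets. The 66 sets include the lymphatic endothelium list, which had 0 genes in both tables and so no values to examine. The median S minus GE difference of the growth factor receptors was 0.398 on the log2 scale in gilt 02, and the nearest gilt was at 0.109 (gap over range 0.692). For CELSR2, the cadherin of planar cell polarity, the difference was 2.04 in gilt 02, and the nearest gilt was at 1.11 (gap over range 0.641). Libraries of gilt 02 are those whose fibroblast, muscle and epithelial levels ran against the labels, and the part of this in both values was not tested.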

How the results depend on the processing

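For the 6 pairs, the 0 genes at an FDR of 5% became 25 at p below 0.0021 before adjustment, 18 with the likelihood ratio test, 27 with DESeq2 and 1 with the gilt as a random replicate block (voom). With tests chosen after seeing the data, 84 (DESeq2) and 85 (likelihood ratio test) were called without gilt 02. Leaving out each gilt gave 0 genes each time, and 0 were called without gilts 02 and 13 (765 at p below 0.05 before adjustment) or with no replicate block (732). The 19 genes of the control pairs became 0 at an FDR of 1%, 270 at 0.0021, 800 with the likelihood ratio test, 735 with DESeq2, 392 with the random block (17 of the 19 among them) and 0 with no replicate block (1311 at p below 0.05 before adjustment), and 0 to 11 when each gilt was left out. Without gilt 02, DESeq2 called 598 and the likelihood ratio test 754. Library size alone, thinned counts and a minimum of 10 counts gave 21, 15 and 18. Pregnant pairs gave 2 at 0.0021, and 0 when each gilt was left out. The group difference gave 73 at 0.0021, 161 with the likelihood ratio test, 138 with DESeq2 (97 and, with the likelihood ratio test, 159 without gilt 02) and 0 without any one gilt. List members called were 0, but 1 with the likelihood ratio test (SLPI), 2 with DESeq2 (SLPI and PPL), and 5 (DESeq2) and 3 (likelihood ratio test) without gilt 02. The cause was not tested. Pair distances over all genes were 0.667 in gilt 01, 1.14 in gilt 02, 0.644 in gilt 04, 0.538 in gilt 05, 1.20 in gilt 13 and 0.551 in gilt 14. No value changed sign under any alternative run for the 25 paired, 19 control and 10 group difference values of named genes. These genes were chosen for their direction or small p value in the same counts. A change of sign was therefore unlikely beforehand, and its absence is no separate check. List medians and counts of pairs without gilt 02 were added after seeing the data, and the medians of glands, junctions, fibroblasts, basement membrane, growth factors, their receptors and hormone receptors changed sign. Depth limits levels below 0.814 to 2.24 CPM, 3 pairs per group limit the exact test, and gilt 02 carries labels against its markers.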
